A study of Mus musculus with 6 samples.

Results

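The genes described here are the heat shock chaperones of the cytosol and mitochondria in B16F10 cells, an established mouse melanoma line. They are 41 genes chosen by symbol from the families of heat shock proteins, their cochaperones and the CCT chaperonin, together with the heat shock factors Hsf1 and Hsf2. Of these, 40 have a row among the 15726 genes of the deposited table, and all 40 passed the filter on low values (a mean of at least 1 FPKM in either group). Hspa1a has no row and was not analysed here. RNA was sequenced from 3 rPPAA18C6@Dox libraries (50 μg/mL) and 3 PBS libraries, all from cells exposed for 8 h. The preparation is known here by its code, and its columns in the table were matched to it by elimination, so each direction below rests on that match. The series title describes a nanoplatform built on a potassium ionophore and names ER stress. A single cell line was used, and whether replicates are separate cultures is not stated, so the p-values below describe variation among the libraries at hand, possibly technical only.

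Heat shock proteins bind unfolded or partly folded proteins. HSP70 machines work with J proteins (HSP40), which bring clients and start ATP hydrolysis, and with exchange factors of the HSP110 and BAG families. HSP90 finishes the folding of kinases and receptors, small heat shock proteins hold unfolded clients, and the CCT ring folds actin and tubulin. In the heat shock response, misfolded protein in the cytosol frees the factor HSF1, which then binds repeats of GAA and TTC near the start of these genes. The endoplasmic reticulum (ER) and the mitochondria have HSP70 and HSP90 relatives of their own, and those of the ER answer to the unfolded protein response instead.

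Promoter windows are printed for 6 members because they show where HSF1-type repeats stand in genes whose RNA is given below. They are from RefSeq on GRCm38.p6, run from 250 bases before to 50 bases after an annotated start, and read 5′ to 3′ on the gene's strand. Capitals mark each GAANNTTC or TTCNNGAA, both of which read the same on either strand, so that overlapping matches form longer runs. The Hspe1 window (chr1:55087898-55088197, + strand) shares 285 bases with a window of Hspd1, which is transcribed the other way. The others are Chordc1 (chr9:18292017-18292316, +), Hsph1 (chr5:149636287-149636586, -), Hspb1 (chr5:135887669-135887968, +), Hspa1b (chr17:34959189-34959488, -) and Cct5 (chr15:31601797-31602096, -).
Hspe1: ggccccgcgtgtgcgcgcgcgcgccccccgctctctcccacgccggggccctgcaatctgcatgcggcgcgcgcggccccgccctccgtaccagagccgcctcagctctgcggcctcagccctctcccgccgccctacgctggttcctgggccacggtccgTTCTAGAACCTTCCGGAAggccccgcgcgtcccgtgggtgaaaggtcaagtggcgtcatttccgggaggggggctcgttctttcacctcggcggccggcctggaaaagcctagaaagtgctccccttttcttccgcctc
Chordc1: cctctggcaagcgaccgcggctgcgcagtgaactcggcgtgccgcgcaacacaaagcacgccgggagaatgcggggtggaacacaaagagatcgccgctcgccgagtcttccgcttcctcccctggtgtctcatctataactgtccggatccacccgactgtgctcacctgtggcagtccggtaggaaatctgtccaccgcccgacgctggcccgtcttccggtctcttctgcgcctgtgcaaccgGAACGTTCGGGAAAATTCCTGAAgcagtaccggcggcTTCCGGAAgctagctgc
Hsph1: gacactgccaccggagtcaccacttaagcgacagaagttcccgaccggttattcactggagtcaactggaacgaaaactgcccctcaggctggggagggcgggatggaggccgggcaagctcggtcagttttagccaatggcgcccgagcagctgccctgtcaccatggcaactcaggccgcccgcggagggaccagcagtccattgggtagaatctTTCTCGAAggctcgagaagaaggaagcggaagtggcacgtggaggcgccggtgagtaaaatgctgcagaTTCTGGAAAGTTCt
Hspb1: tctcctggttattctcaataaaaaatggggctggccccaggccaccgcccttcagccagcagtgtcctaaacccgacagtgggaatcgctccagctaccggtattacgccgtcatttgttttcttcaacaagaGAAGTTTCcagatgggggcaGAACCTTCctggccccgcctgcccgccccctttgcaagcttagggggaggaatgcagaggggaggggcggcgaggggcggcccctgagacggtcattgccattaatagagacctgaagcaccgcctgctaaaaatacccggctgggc
Hspa1b: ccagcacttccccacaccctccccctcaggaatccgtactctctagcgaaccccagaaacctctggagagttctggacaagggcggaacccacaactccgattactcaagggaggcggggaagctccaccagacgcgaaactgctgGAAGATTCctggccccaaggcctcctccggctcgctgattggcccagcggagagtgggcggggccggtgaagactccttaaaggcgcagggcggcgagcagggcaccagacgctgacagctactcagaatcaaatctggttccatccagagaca
Cct5: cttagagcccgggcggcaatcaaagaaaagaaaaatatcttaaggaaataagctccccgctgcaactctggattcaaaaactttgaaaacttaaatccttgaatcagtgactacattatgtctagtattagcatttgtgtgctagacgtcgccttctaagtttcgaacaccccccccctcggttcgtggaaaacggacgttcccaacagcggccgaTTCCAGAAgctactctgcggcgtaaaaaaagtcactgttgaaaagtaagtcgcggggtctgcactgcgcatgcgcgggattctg

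A window was found for 34 of the 41 members, 46 windows in all. At least 1 pair of repeats stood in 18 of these windows (39.1%), against 15.1% of all 32851 windows. The triple, a GAANNTTC followed by NNGAA or a TTCNNGAA followed by NNTTC, contains overlapping pairs, and each form is the reverse complement of the other. It stood in 7 (15.2%), against 0.603% of all windows. Its 5 genes were Chordc1, Dnajb6, Hspd1, Hspe1 and Hsph1. The 7 windows are not separate sites. The 2 windows of Hsph1 overlap, as do the 2 of Dnajb6, and those of Hspd1 and Hspe1 share 285 bases. These matches describe letters only.

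Heat shock chaperone RNA differed little between cells given rPPAA18C6@Dox and cells given PBS. Of the 40 tested members 1 rose, the CCT subunit gene Cct5, and none fell (limma, Benjamini-Hochberg adjustment over 10680 tested genes, threshold 0.05). That is 2.50% of the members, where 9.93% of all tested genes passed, 4.66% as higher and 5.26% as lower. The estimates were split, with 19 above and 21 below 0, and ran from -0.26 for Hspa1b to 0.15 for Dnajb2 and Dnajb5 on the log2(FPKM + 1) scale. Their median was -0.0028, beside -0.013 for all tested genes. In these bulk libraries a change within each cell and a change in the share of cells that express a gene cannot be told apart.

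The 95% interval of the change lay within 1.1-fold in either direction for 29 members (72.5%), against 38.8% of all tested genes, and within 1.2-fold for 37 (92.5% against 86.5%). The exceptions at 1.2-fold were Hspa1b, Dnajb5 and Hspb1. All these folds are of FPKM + 1, and on that scale none of the 40 intervals reached 1.5-fold. FPKM is a read count scaled by gene length and library depth, and the added 1 understates the change of the lowest members, Hspa1b and Dnajb5. For both genes the intervals do not bound the change in FPKM itself. Members had a median level of 90.0 FPKM, against 10.7 for all tested genes, and the median spread between PBS libraries was 2.37% against 3.35% (coefficient of variation, n = 3). At an unadjusted p under 0.05 limma listed 10 members, 6 higher and 4 lower, a share of 25% that lies near the 26.2% of all tested genes. By groups that did not overlap, 9 of the 40 members had every rPPAA18C6@Dox library above every PBS library, a larger share than the background of 12.6%. For 4 members every one was below, a smaller share than the background of 18.7%. A second method, limma's voom on read counts recovered from the FPKM, called 6 members (15%), a share near the 14.6% of all tested genes. With limma and a filter at 5 FPKM 4 of 36 members passed, where 13.2% of all genes did, and with quantile normalization 2 of 40 passed, where 9.83% did.

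**Figure D1:**
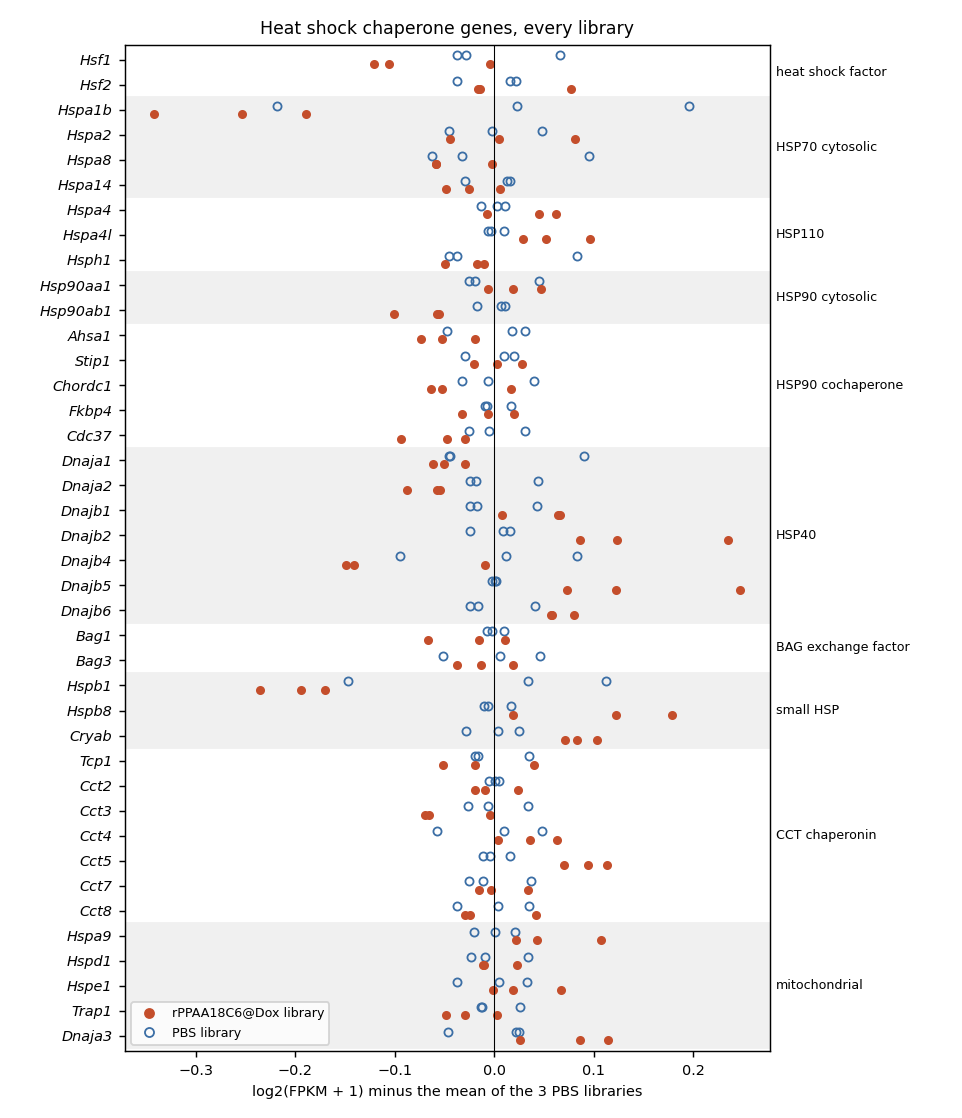
Each of the 40 tested heat shock chaperone genes in every library, as log2(FPKM + 1) minus the mean of the 3 PBS libraries (filled, rPPAA18C6@Dox; open, PBS; grey bands separate the roles at the right). Most points lie close to 0, Hspa1b and Hspb1 spread the furthest to the left, and Cct5, Cryab and Dnajb2 have all filled points to the right of the open ones.

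The transcription factor of the response, Hsf1, was at 30.4, 27.9 and 28.2 FPKM with rPPAA18C6@Dox and at 31.9, 29.6 and 29.8 FPKM with PBS. The groups overlapped (log2 fold change -0.08, SE 0.0401, limma adjusted p = 0.262). Hsf2, its relative with roles in development, had a mean of 4.32 ± 0.198 and 4.26 ± 0.117 FPKM (SD, n = 3 per group; log2 fold change 0.02).

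Of the 4 cytosolic HSP70 genes, 0 passed with limma or with voom, and Hspa1b was the 1 whose unadjusted p was under 0.05. Hspa8, the constitutive HSP70, held most of this RNA, at 1149, 1104 and 1105 FPKM with rPPAA18C6@Dox and at 1228, 1125 and 1101 FPKM with PBS. PBS replicate 1 was the highest library and the groups overlapped (log2 fold change -0.04, SE 0.0386, adjusted p = 0.559). Without that replicate the estimate was 0.01, so its sign rests on 1 library. Hspa8 shares 62.8% of its 100-base windows with other annotated genes in GENCODE vM21, Gm15459 and Gm8355 among them, and how such reads were counted is not known here. The stress-inducible Hspa1b was at 1.79, 1.67 and 1.51 FPKM with rPPAA18C6@Dox and at 2.65, 2.24 and 1.74 FPKM with PBS, with 157 to 278 recovered reads per library. All but 1 of the PBS libraries stood above the rPPAA18C6@Dox libraries, and PBS replicate 3 lay among them. Its log2 fold change was -0.26 (SE 0.0956, adjusted p = 0.114), the lowest of the members. The estimate was -0.37 with limma and a pseudocount of 0.1 and -0.38 with voom. Hspa1b passed in neither (adjusted p = 0.115 and 0.0661). Without PBS replicate 3 it passed the threshold (log2 fold change -0.37, adjusted p = 0.0257), the only leave-one-out fit in which it did, with adjusted p up to 0.294 in the others. Without PBS replicate 1, the highest library, the log2 fold change shrank to -0.16. Hspa1b shares 49.9% of its 100-base windows with the Hspa1a transcript in GENCODE vM21, so its value may hold reads of both copies or lack reads that match both. Hspa2, a testis-enriched HSP70, and Hspa14, a ribosome-bound one, had log2 fold changes of 0.01 and -0.02.

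HSP110 genes encode exchange factors that let HSP70 release its client. Hspa4 had means of 135 ± 3.37 and 132 ± 1.15 FPKM, Hspa4l of 7.07 ± 0.192 and 6.75 ± 0.0439 FPKM, and Hsph1 of 66.4 ± 0.968 and 67.7 ± 3.49 FPKM (rPPAA18C6@Dox first; SD, n = 3 each). Neither limma nor voom called any of the 3, and 0 had an unadjusted p under 0.05. Hsph1 carries a triple repeat in the printed window, and its log2 fold change was -0.03.

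Cytosolic HSP90 RNA was the most abundant of the roles, at 0.602% of the summed FPKM of a library with rPPAA18C6@Dox and 0.619% with PBS. The inducible Hsp90aa1 was at 1014, 997 and 1034 FPKM with rPPAA18C6@Dox and at 1033, 988 and 983 FPKM with PBS, and the groups overlapped (log2 fold change 0.02, SE 0.0267, adjusted p = 0.691); it shares 47.5% of its 100-base windows with other genes. Its constitutive relative Hsp90ab1 was at 1299, 1339 and 1341 FPKM with rPPAA18C6@Dox and at 1404, 1400 and 1377 FPKM with PBS. All 3 rPPAA18C6@Dox libraries lay below all PBS libraries, by a log2 fold change of -0.07 (SE 0.0232) that missed the threshold (adjusted p = 0.0820). With quantile normalization it passed (log2 fold change -0.08, adjusted p = 0.0274). For the 5 HSP90 cochaperones the count was 0 with limma, with voom and at an unadjusted p under 0.05. These are Ahsa1, which stimulates the HSP90 ATPase (log2 fold change -0.05), Stip1, which passes clients from HSP70 to HSP90 (0.00), Chordc1 (-0.03), the immunophilin Fkbp4 (-0.01) and the kinase adaptor Cdc37 (-0.06). Chordc1, whose window holds the most repeats of those printed, had means of 32.8 ± 1.03 and 33.5 ± 0.887 FPKM.

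Cytosolic J proteins held 4 of the 10 members with an unadjusted p under 0.05, 57.1% of these 7 genes against 26.2% of all tested genes. Of 12 further J protein genes grouped as cytosolic and tested in the second list below, 0 had such a p. None of the 7 members passed the adjusted threshold, and voom called 1, Dnajb2. Dnajb1, the J protein most tied to the heat shock response, was at 17.6, 18.4 and 18.4 FPKM with rPPAA18C6@Dox and at 18.1, 17.2 and 17.3 FPKM with PBS (log2 fold change 0.05, SE 0.0332, adjusted p = 0.420). The groups overlapped through PBS replicate 1. Dnajb2, which binds ubiquitin and sends clients to the proteasome, was at 13.02, 12.7 and 14.2 FPKM with rPPAA18C6@Dox and at 11.7, 11.95 and 12.01 FPKM with PBS. Every rPPAA18C6@Dox library was higher (log2 fold change 0.15, SE 0.0421, adjusted p = 0.0534), and the voom adjusted p was 0.00902. Without rPPAA18C6@Dox replicate 2 the limma call was made (adjusted p = 0.0457), and its adjusted p reached 0.135 in the other leave-one-out fits.

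Dnajb6, which keeps proteins from aggregating, was at 33.9, 33.3 and 33.3 FPKM with rPPAA18C6@Dox and at 32.9, 31.6 and 31.4 FPKM with PBS (log2 fold change 0.06, SE 0.0282, adjusted p = 0.179). Dnajb5 was at 1.35, 1.43 and 1.65 FPKM with rPPAA18C6@Dox and at 1.23, 1.23 and 1.24 FPKM with PBS, with 183 to 246 recovered reads per library (log2 fold change 0.15, SE 0.0635, adjusted p = 0.173). For both genes every rPPAA18C6@Dox library was the higher, by a margin that missed the threshold. The Dnajb5 estimate was 0.24 with a pseudocount of 0.1, 0.27 with voom and 0.10 without rPPAA18C6@Dox replicate 3, its highest library, and passed in none of them. In the other direction Dnaja2, a J protein of the DNAJA class, was at 82.2, 80.3 and 82.0 FPKM with rPPAA18C6@Dox and at 88.1, 84.3 and 83.9 FPKM with PBS (log2 fold change -0.07, SE 0.0266, adjusted p = 0.142), also without overlap. Dnaja1 (-0.05) and Dnajb4 (-0.10) overlapped between groups. Dnajb6 shares 31.0% of its 100-base windows with transcripts of other genes, and Dnaja1 14.8%.

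Neither of the 2 BAG exchange factors passed, with 0 called by limma, by voom or at an unadjusted p under 0.05. Bag3, an HSF1 target that joins HSP70 to small heat shock proteins in selective autophagy, was at 29.4, 28.9 and 30.1 FPKM with rPPAA18C6@Dox and at 30.7, 28.6 and 29.8 FPKM with PBS. These ranges overlapped (log2 fold change -0.01, SE 0.0326, adjusted p = 0.871). Bag1 had a log2 fold change of -0.02.

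The groups did not overlap for any of the 3 small heat shock protein genes, 2 of them higher and 1 lower (12.6% and 18.7% of all tested genes). With limma 0 passed the adjusted threshold, while the unadjusted p of all 3 was under 0.05 (26.2% of all tested genes) and voom called 3 (14.6%). Hspb1 was at 26.5, 25.7 and 26.9 FPKM with rPPAA18C6@Dox and at 33.0, 31.2 and 27.4 FPKM with PBS. Its PBS libraries were all the higher, with replicate 3 close to the rPPAA18C6@Dox libraries (log2 fold change -0.20, SE 0.0563, adjusted p = 0.0519). Without PBS replicate 3 it passed (log2 fold change -0.27, adjusted p = 0.00436), and with any other library left out it did not (adjusted p up to 0.139). With the filter at 5 FPKM and with voom it passed too (adjusted p = 0.0341 and 0.0349). In GENCODE vM21 it shares 42.7% of its 100-base windows with the pseudogene Hsp25-ps1.

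Cryab, the αB-crystallin, was at 112, 113 and 114 FPKM with rPPAA18C6@Dox and at 108, 104 and 107 FPKM with PBS (log2 fold change 0.09, SE 0.0240, adjusted p = 0.0517). All 3 rPPAA18C6@Dox libraries were the higher. Its call was made with the filter at 5 FPKM and with voom (adjusted p = 0.0416 and 0.00921) and in none of the fits with 1 library left out (0.0601 to 0.174). An exon of Cryab overlaps Hspb2 on the other strand, and Hspb2 had means of 23.8 ± 0.936 and 25.8 ± 1.38 FPKM (log2 fold change -0.11, adjusted p = 0.128). Hspb8, the partner of BAG3, was at 54.1, 50.2 and 56.3 FPKM with rPPAA18C6@Dox and at 50.2, 49.4 and 49.2 FPKM with PBS. rPPAA18C6@Dox replicate 2 lay just above the PBS libraries and the others clearly so (log2 fold change 0.11, SE 0.0380, adjusted p = 0.108). Without that replicate the call was made (log2 fold change 0.15, adjusted p = 0.0229), and in the other leave-one-out fits it was not (0.161 to 0.273).

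In the CCT chaperonin, whose ring needs each of its subunits, 1 member gene of 7 rose and none fell (14.3%, against 9.93% of all tested genes). Cct5 was at 383, 376 and 388 FPKM with rPPAA18C6@Dox and at 362, 356 and 357 FPKM with PBS, means of 382 ± 5.74 and 358 ± 3.45 FPKM. Every rPPAA18C6@Dox library was the higher, by a log2 fold change of 0.09 (SE 0.0221, adjusted p = 0.0290), or 6.62% on the means. This call was not firm. Leaving out rPPAA18C6@Dox replicate 1 or 3 gave adjusted p = 0.0600 and 0.0721, and leaving out PBS replicate 1, 2 or 3 gave 0.0506, 0.110 and 0.0985. Without rPPAA18C6@Dox replicate 2 it held (0.0455). It was also lost with quantile normalization (log2 fold change 0.04, adjusted p = 0.147), with no filter (0.0579), without the trend (0.104) and with the replicate block (0.0570), and kept with voom (0.000911). The Cct5 transcript shares no 100-base window with another gene.

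The other 6 member subunits did not pass. Nor did the subunit gene Cct6a, which is in the second list below (log2 fold change -0.01, limma adjusted p = 0.933). Tcp1 was at 207, 203 and 216 FPKM with rPPAA18C6@Dox and at 215, 208 and 207 FPKM with PBS, with overlap (log2 fold change -0.01, SE 0.0287, adjusted p = 0.853). Cct2, Cct3, Cct4, Cct7 and Cct8 had log2 fold changes from -0.05 to 0.03. In PBS the 7 member subunits ran from 171 FPKM for Cct4 to 373 FPKM for Cct2. Together the 7 genes made up 0.504% of the summed FPKM with rPPAA18C6@Dox and 0.501% with PBS. Cct2 passed with quantile normalization (log2 fold change -0.06, adjusted p = 0.0320), where its value with the deposited scaling was -0.00 (adjusted p = 0.969).

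Of the 5 mitochondrial members limma called 0, also at an unadjusted p under 0.05, and voom called Hspa9. The matrix HSP70 Hspa9, which also pulls proteins through the import channel, was at 183, 186 and 194 FPKM with rPPAA18C6@Dox and at 183, 178 and 180 FPKM with PBS. Its groups did not overlap (log2 fold change 0.06, SE 0.0272, adjusted p = 0.217, and voom adjusted p = 0.0479). The gap was narrow, with rPPAA18C6@Dox replicate 1 at 182.975 FPKM and PBS replicate 1 at 182.792 FPKM. Dnaja3, the J protein of the matrix, also lacked overlap, with means of 24.2 ± 0.788 and 23.0 ± 0.661 FPKM (log2 fold change 0.08, adjusted p = 0.198). Here too the gap was narrow, with rPPAA18C6@Dox replicate 1 at 23.3735 FPKM and PBS replicate 2 at 23.3549 FPKM. The chaperonin genes Hspd1 and Hspe1 share the printed window and have exons that overlap on opposite strands. Hspd1 was at 729, 728 and 746 FPKM with rPPAA18C6@Dox and at 752, 729 and 722 FPKM with PBS (log2 fold change 0.00, SE 0.0240, adjusted p = 0.998). Hspe1 was at 453, 459 and 475 FPKM with rPPAA18C6@Dox and at 442, 455 and 464 FPKM with PBS (log2 fold change 0.03, SE 0.0271, adjusted p = 0.559). Both genes overlapped between groups. They share 26.9% and 20.4% of their 100-base windows with other genes. The mitochondrial HSP90 gene Trap1 had a log2 fold change of -0.03.

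**Figure D2:**
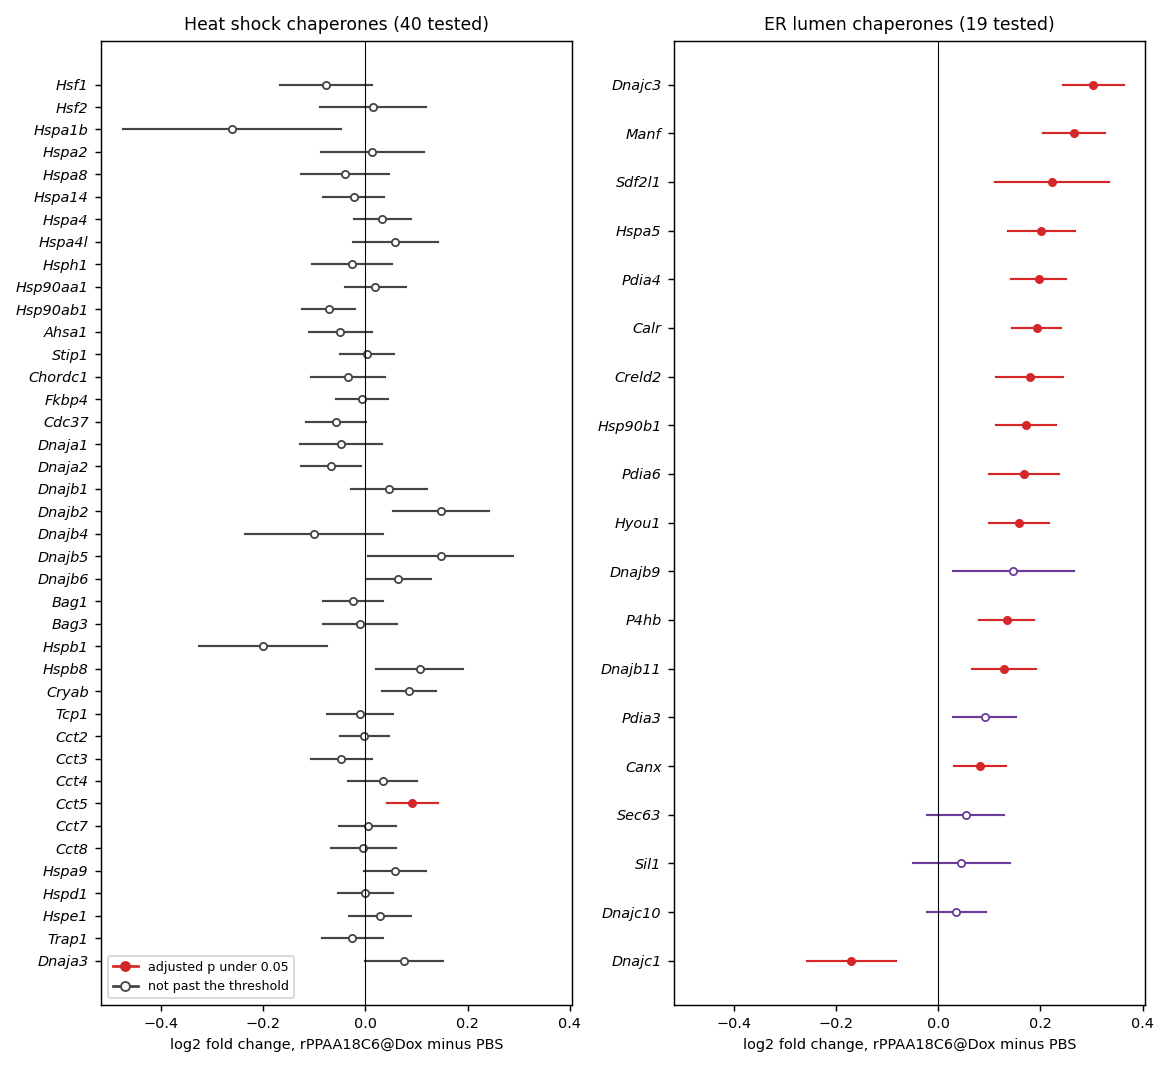
Log2 fold change with its 95% limma interval (line) for the 40 heat shock chaperones at the left and 19 ER lumen chaperones at the right, 3 libraries per group; red marks an adjusted p under 0.05. At the left only Cct5 is red, at the right 14 genes are, with Dnajc1 the one below 0.

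The members' values moved together in some libraries. PBS replicate 1 was the highest of the PBS libraries for 33 of the 40 members (82.5%), against 38.6% of all tested genes. Without that library limma called 0 members (0 also without any 1 of PBS replicate 2 and rPPAA18C6@Dox replicates 1 and 3), and its part in the results was not tested further. Over all 6 libraries rPPAA18C6@Dox replicate 3 was the highest for 19 members (47.5%, against 18.7% of all tested genes) and PBS replicate 1 for 16 (40%, against 22.9%). Summed over the 40 members, the share of a library's FPKM was 2.23%, 2.21% and 2.23% with rPPAA18C6@Dox and 2.29%, 2.23% and 2.22% with PBS. PBS replicate 1 had the highest share and the other libraries lay close together.

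The rest of the chaperone network was read from a second list. Of 68 further cochaperones, J proteins, prefoldin and chaperonin subunits and mitochondrial folding genes, 61 were tested, 2 fell and none rose, 3.28% against 9.93% of all genes. The median log2 fold change was 0.01. Fkbp5, an immunophilin of the glucocorticoid receptor, had means of 30.8 ± 0.275 FPKM with rPPAA18C6@Dox and 33.6 ± 0.109 FPKM with PBS and fell (log2 fold change -0.12, SE 0.0251, adjusted p = 0.0159). That call was lost without PBS replicate 2 or 3, with an adjusted p of up to 0.0551 in the leave-one-out fits. The smallest p among those that did not pass were those of Hspb11 (0.20, adjusted p = 0.0616) and the matrix protease Lonp1 (0.08, adjusted p = 0.0930).

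More of the ER relatives of these genes passed. Of 19 ER lumen chaperones 13 rose and 1 fell, 73.7% against 9.93% of all tested genes, with a median log2 fold change of 0.16 beside -0.0028 for the heat shock members. That rise of ER chaperones was known when the list was made and is used only for comparison. The smallest p were those of the J protein Dnajc3 (0.30, adjusted p = 9.55e-05), the secreted factor Manf (0.27, adjusted p = 0.000305), the lectin chaperone Calr (0.19, adjusted p = 0.000541) and the disulfide isomerase Pdia4 (0.20, adjusted p = 0.00101). Hspa5, Hsp90b1, Hyou1, Creld2, P4hb, Pdia6, Dnajb11, Sdf2l1 and Canx rose by 0.08 to 0.22, the call of Canx being lost with any 1 library left out (adjusted p up to 0.119). The J protein Dnajc1 fell (-0.17, adjusted p = 0.0248). In the 6 leave-one-out fits Dnajc1 was called in 2 (adjusted p up to 0.0881), Dnajb11 in 3 (up to 0.0734) and Sdf2l1 in 4 (up to 0.0806), and with no filter Dnajc1 and Sdf2l1 were not called (0.0603 and 0.0850). Relatives were compared directly as the log2 ratio of their levels in each library. Hspa5, the HSP70 of the ER, stood at -1.47, -1.41 and -1.41 against Hspa8 with rPPAA18C6@Dox and at -1.70, -1.67 and -1.65 with PBS, a difference of 0.24. For Hsp90b1, the HSP90 of the ER, against Hsp90ab1 the ratio was -1.22, -1.25 and -1.21 with rPPAA18C6@Dox. With PBS it was -1.45, -1.51 and -1.45, a difference of 0.24. Hsp90ab1 itself was lower in every rPPAA18C6@Dox library (log2 fold change -0.07), which adds to this difference. The other cytosolic HSP90 gene, Hsp90aa1 (0.02), was not paired. Hspa5 against the mitochondrial Hspa9 was at 1.171, 1.156 and 1.096 with rPPAA18C6@Dox and at 1.04, 0.989 and 0.957 with PBS, a difference of 0.14. In all 3 pairs every rPPAA18C6@Dox library stood above every PBS library. These pairs were chosen with the rise of the ER genes known, so the ratios are a description with no test.

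**Figure D3:**
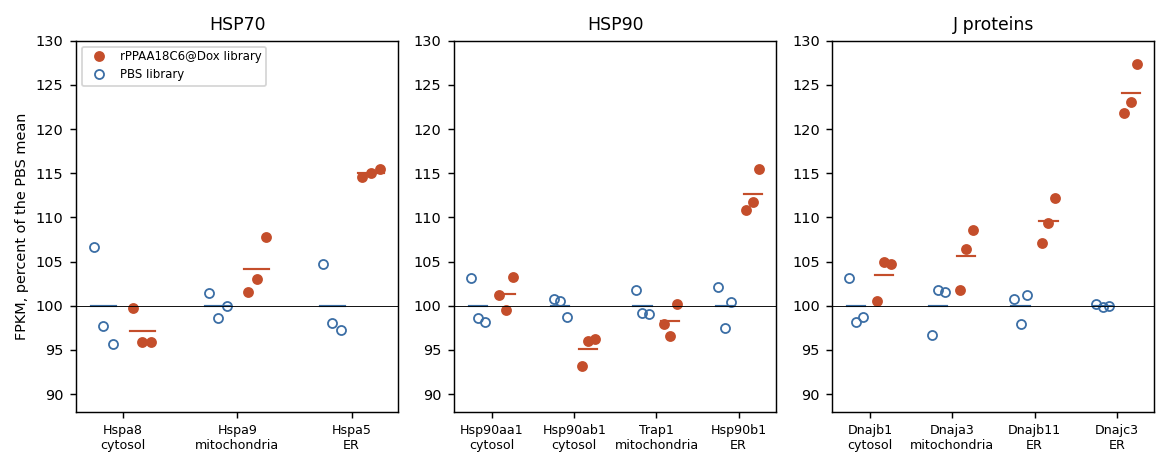
FPKM of HSP70, HSP90 and J protein genes of the cytosol, mitochondria and ER in each library, as a percentage of the mean of the 3 PBS libraries (open, PBS; filled, rPPAA18C6@Dox; short lines, group means; the axis starts above 0). The ER genes Hspa5, Hsp90b1, Dnajb11 and Dnajc3 have all filled points above the open ones. So do the mitochondrial Hspa9 and Dnaja3, narrowly, while the filled points of Hsp90ab1 all lie below its open ones. The points of Hspa8, Hsp90aa1, Trap1 and Dnajb1 overlap.

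Members were also read by the repeats in their promoter window. The 5 members with the triple had log2 fold changes from -0.03 to 0.06, 3 of them above 0, with a median of 0.00 and 0 past limma's threshold (1 with an unadjusted p under 0.05, Dnajb6, and 0 with voom). The 10 tested members with a pair but no triple ran from -0.26 to 0.11, with 2 above 0 and 8 below, a median of -0.029 and 1 past it, Cct5. The 18 with neither, Dnajb1 among them, ran from -0.07 to 0.15, with 10 above 0, a median of 0.00 and 0 past it. The search took exact matches within the windows only, so this class may hold genes with sites that it missed. Another 7 members had no window and could not be placed: Hsf1, Hspa8, Hsp90aa1, Hsp90ab1, Cryab, Cct4 and Hspa9. They ran from -0.08 to 0.09, with 4 above 0 and 0 past the threshold. Of all 10680 tested genes 4642 were above 0, and the differences between these classes were not tested.

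**Figure D4:**
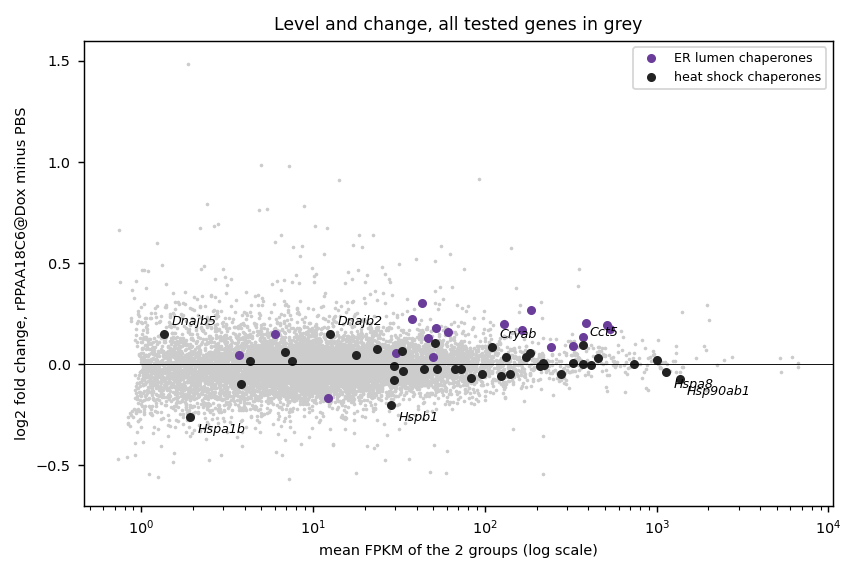
Mean FPKM of both groups (log axis) against the log2 fold change for all 10680 tested genes (grey), the 40 heat shock chaperones (black) and 19 ER lumen chaperones (violet). The heat shock members lie along 0 across the whole range of levels, and most ER genes lie above them.

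In the authors' deposited table p was under 0.05 for 13 of the 40 members, a larger share than the 23.2% of all tested genes. The smallest in the authors' deposited table were those of Cct5 (8.93e-07), Cryab (0.000327), Dnajb2 (0.00122) and Hspb8 (0.00313). The test behind these values is not stated in the labels or the header.

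Reads recovered per library numbered 36380462 to 37067116. The melanocyte markers Pmel, Tyr, Tyrp1, Dct, Mlana, Mitf and Sox10 were all present, with PBS means of 45.5 FPKM for Mitf to 1855 FPKM for Dct, and Mitf, Pmel, Tyr, Tyrp1 and Dct rose. Of 20 markers of immune, endothelial, fibroblast and epithelial cells 12 had no row, and the means of the other 8 ran up to 1.66 FPKM, that of Cd68 with rPPAA18C6@Dox against 1.27 FPKM with PBS (adjusted p = 0.0311).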

How the data were processed

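Poly(A) RNA of B16F10 cells was sequenced with a stranded kit, per the labels' protocols. The header of the deposited table names no unit; the authors' values were read as FPKM, a count scaled by gene length and depth, because each gene's deposited values are whole multiples of a step. A p-value that the authors computed stands beside them in the deposited table. The genome build listed is mm9, per the submitters' processing notes. Which aligner and counter were used, and whether strand was, is not given in the sources used here. Columns named for PBS matched the PBS titles, and the columns P were assigned to rPPAA18C6@Dox by elimination and number, so every sign rests on this reading.

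From the FPKM values, 1 factor per gene gave whole reads in all 6 libraries for 15726 of 15726 genes (tolerance 0.01). Genes with a mean of at least 1 FPKM in either group were tested on log2(FPKM + 1) by limma 3.58.1 (R 4.3.3) with the trend option, unpaired and two-sided, Benjamini-Hochberg adjustment and a threshold of 0.05. Planned permutation tests of relatives are not reported, since the pairs were chosen with their values known. The fits were tested on simulated data. Alternatives were a pseudocount of 0.1, no filter, a filter at 5 FPKM, quantile normalization, no trend, voom with TMM factors on the recovered reads, the replicate block and each library left out. Members and lists were chosen with earlier results of these data known. All 41 members are accounted for. Values in every library are printed for the best-known genes of each role and for those with an unadjusted p under 0.05. Of each other list the 4 genes with the smallest p and those past the threshold are named. A gene of the further chaperone list is counted but not reported here. Promoters, exons and shared windows come from RefSeq GRCm38.p6 and GENCODE vM21, matched by symbol, a build other than that of the files.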

Additional observations from a re-analysis of the deposited data

How the results depend on the processing

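Which members passed depended on the setting. Of the members, 4 passed with a filter at 5 FPKM (Dnajb2, Cryab and Cct5 higher, Hspb1 lower), 2 with quantile normalization (Hsp90ab1 and Cct2, both lower) and 6 with voom (Dnajb2, Hspb8, Cryab, Cct5 and Hspa9 higher, Hspb1 lower), against 14.6% of all tested genes with voom. With no filter, without the trend and with the replicate block 0 passed, and with a pseudocount of 0.1 the 1 call of Cct5 remained. Leave-one-out fits gave 0 to 3: 3 without rPPAA18C6@Dox replicate 2, 2 without PBS replicate 3 and 0 without each of the others. The further chaperone genes had 4 calls with voom, 1 with the replicate block and 0 to 2 with 1 library left out, and the ER lumen list 10 to 15 over all settings. Over all genes the count was 681 with no filter, 1555 with voom, 825 with the replicate block and 600 to 749 with 1 library left out. Replicates with the same number did not deviate together (correlations -0.0024, 0.055 and -0.021 over the tested genes), so the numbers were not taken as pairs. With a pseudocount of 0.1, quantile normalization, the replicate block and each library left out, the differences between relatives kept their sign. With 1 library left out they were 0.23 to 0.26, 0.22 to 0.26 and 0.13 to 0.17. Other alternatives were not run for these pairs, which were chosen with the rise of the ER genes known. The sign of 13 members, each with a change of at most 0.040 on the log2 scale, turned in at least 1 setting (9 of them with quantile normalization or voom), and 27 kept theirs in all. Voom called 878 genes higher and 677 lower where limma called 498 and 562. The cause of these differences was not tested. Hspa1b and Dnajb5 were the 2 members with the fewest reads, with an expected counting error of 7.05% and 7.03%. Their coefficients of variation were 20.7% and 0.264% between PBS libraries and 8.49% and 10.5% between rPPAA18C6@Dox libraries. What limits these 2 genes was not tested, and p-values here are based on 3 libraries per group.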
